A study of Mus musculus with 7 samples.

Results

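Kinesins are motor proteins that use ATP to move along microtubules or to take microtubules apart at their ends. Some of them build and drive the mitotic spindle and the cleavage of dividing cells, some carry vesicles, endosomes and mitochondria along axons and in other cells, and some move cargo into and along cilia. In the gut they serve dividing progenitor cells, the long axons of enteric neurons and the primary cilia through which mesenchyme reads Hedgehog signals. Of the 18194 genes measured on the arrays, 37 have a symbol in the platform annotation made of Kif and a number, and they are described here. Members were picked by symbol and were read by 99 probe sets. The family and its classes were chosen with earlier results of these data known. By the role each is best known for, 11 were placed with the mitotic kinesins, 12 with axonal and vesicle transport, 8 with cilia and 6 in none of these. Some members have roles in more than 1 class, and Kif2a, which also acts at spindle poles, was placed in none.

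Colon was taken from inbred C57BL/6 mice, with no treatment or mutation, on every embryonic day between E13.5 and E18.5 (6 stages) and from adult mice 8 weeks old. Each of the 7 stages has 1 array, and whether embryos were pooled is not given in the sources used here. Values are log2 intensities normalized by RMA, and the level of a gene is the median over its probe sets, so that a difference of 1 is a 2-fold difference. For each gene, limma fitted a line to the 6 embryonic arrays, which gives a slope per day, and set the adult array against the level of that line at E18.5 (the adult difference). A slope was called at an adjusted p (Benjamini-Hochberg over all genes) under 0.05, and the adult difference at the same threshold and a size of at least 1. The scatter of the embryonic arrays around the line is the only measure of error, and the lone adult array was assumed to scatter as they did. Epithelial markers of colon rose with stage, 10 of 10 along the embryonic slope, with a mean log2 level of 8.61 on the E13.5 array, 10.2 on the E18.5 array and 10.8 on the adult array. The adult array stood apart in 2 measures, since 4 of 8 pancreatic acinar and adipocyte markers were called higher there (mean log2 level 7.03, against 5.13 to 5.54 on the embryonic arrays) and the 5′ minus 3′ value for Gapdh, more negative where RNA is shorter, was -2.41, against -1.59 to -1.29. The part of these in the adult differences was not tested. In whole colon, fewer cells of a type and less RNA per cell cannot be told apart.

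Through embryonic life 7 of the 11 mitotic kinesins fell, among them the motors Kif11, Kif20a and Kif22, and 1 of the 12 axonal and vesicle kinesins did. Along the embryonic slope 10 of the 37 kinesins were called lower, beside 10.4% of all genes, and 1 was called higher, beside 9.12%. Besides those 8, 1 of 8 ciliary kinesins and 1 of the 6 others were called lower. The 1 rise was ciliary, and no mitotic kinesin rose. The median slope was -0.17 log2 units per day over the mitotic kinesins, -0.01 over the axonal and vesicle kinesins, 0.01 over the ciliary kinesins, 0.03 over the others and 0.00 over all genes. All 11 mitotic slopes were below 0. Kif2a and Kif2b, placed with the others, had slopes of -0.04 and 0.02 (adjusted p = 0.43 and 0.69). With each gene centred on its mean, the median of the mitotic class over the 6 embryonic stages was 0.54, 0.45, -0.02, 0.01, -0.19 and -0.23, and the adult value was -0.42. That of the axonal and vesicle class stayed between -0.04 and 0.05 on all 7 arrays, and that of the ciliary class between -0.05 and 0.04. With the probe set of highest mean for each gene, the axonal and vesicle median was -0.20 at E13.5, 0.04 at E15.5 and -0.14 in the adult. The ciliary median then lay between -0.06 and 0.08. The classes were described by these counts and medians, and the difference between them was not tested.

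**Figure D1:**
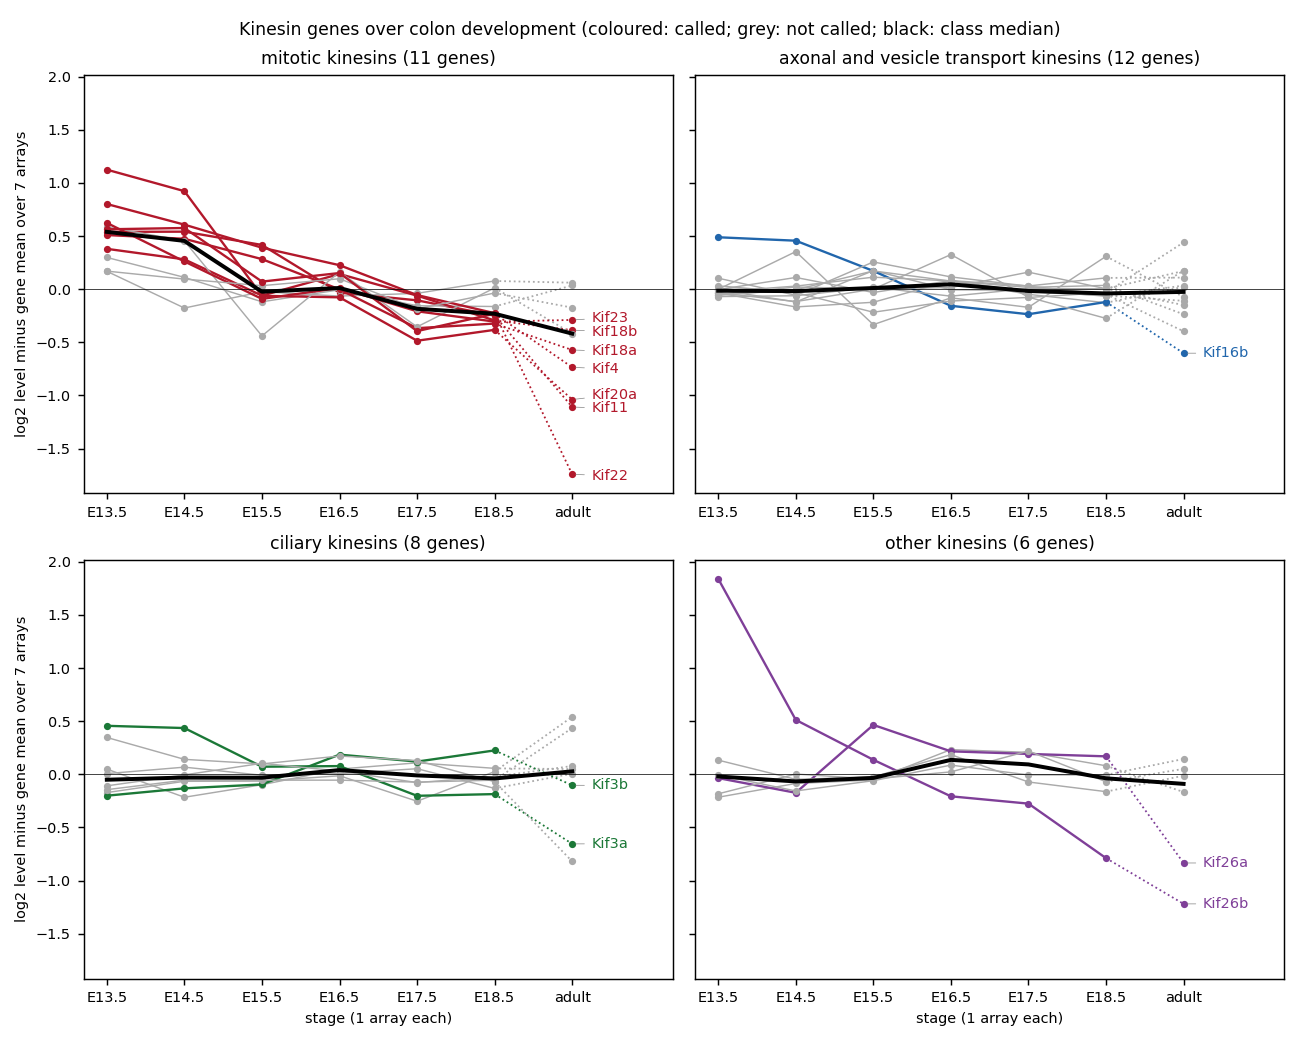
Log2 level (median over probe sets) of each of the 37 kinesins minus its mean over the 7 arrays (vertical axis) by stage (horizontal axis, 1 array each), in 4 panels by class. Coloured lines are genes called along the embryonic slope or in the adult difference, grey lines are the other genes and the black line is the class median, which declines over the stages in the mitotic panel, with 0.54 at E13.5 and -0.42 in the adult, and stays between -0.05 and 0.05 in the axonal and ciliary panels.

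Among the motors of the spindle, Kif22, the chromokinesin Kid that pushes chromosome arms outward, had log2 levels of 8.88, 8.69, 8.47, 8.31, 8.02 and 7.85 from E13.5 to E18.5 and 6.34 in the adult. It dropped at every step, with the smallest adjusted p of the class (slope -0.21 ± 0.017 per day, SE, adjusted p = 0.0011). The gene lies at chr7:127027729-127042467 (GRCm38.p6) and was read by 3 probe sets. Kif11 (Eg5), a motor that pushes the spindle poles apart, had 7.81, 7.81, 7.68, 7.23, 7.16 and 7.02, and 6.16 in the adult. It was level over the first pair of stages and then declined, with a slope of -0.18 ± 0.027 (SE, adjusted p = 0.0058). Kif4, a chromokinesin that condenses chromosomes and acts with Prc1 at the midzone between separating chromosomes, had 7.38, 7.39, 6.89, 6.97, 6.42 and 6.58, and 6.08 in the adult, and was also called lower (slope -0.19 ± 0.037, SE, adjusted p = 0.014). Kif18a, which dampens the swings of chromosomes at the metaphase plate, had 5.67, 5.63, 5.44, 5.16, 4.79 and 4.84, and 4.59 in the adult. Its slope of -0.20 ± 0.027 (SE, adjusted p = 0.0044) came from 1 of its 2 probe sets, which read 7.16, 7.13, 6.68, 6.23, 5.42 and 5.57 and 4.99 in the adult, while the other lay between 4.09 and 4.20 throughout. Kif18b, a kinesin of the same family that trims astral microtubules, had 6.80, 6.70, 6.36, 6.56, 6.36 and 6.13, and 6.04 in the adult. This was the shallowest of the called mitotic slopes (-0.12 ± 0.028, SE, adjusted p = 0.027), and it was lost when any of E13.5, E14.5, E17.5 or E18.5 was left out (adjusted p = 0.072 to 0.17).

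Of Kif14, Kif20a, Kif20b and Kif23, which act in cytokinesis, Kif20a and Kif23 were called lower. Kif20a (MKLP2), which brings the Aurora B complex to the midzone, had the steepest slope of the class. Its log2 levels were 8.83, 8.62, 7.64, 7.62, 7.22 and 7.32 from E13.5 to E18.5 and 6.66 in the adult, so that most of the embryonic loss lay between E14.5 and E15.5 (slope -0.34 ± 0.056 per day, SE, adjusted p = 0.0085). Kif23 (MKLP1), which forms the centralspindlin complex with Racgap1, had 5.77, 5.40, 5.05, 5.15, 4.93 and 4.84, and 4.85 in the adult, with a slope of -0.17 ± 0.031 (SE, adjusted p = 0.012). Kif20b, another midzone motor, had 6.59, 6.46, 5.56, 6.17, 5.65 and 6.02, and 5.59 in the adult. The E15.5 array stood below its neighbours here, and the slope of -0.13 ± 0.070 (SE) did not pass (adjusted p = 0.26), whereas without E15.5 it did (-0.15, adjusted p = 0.041). The other 3 mitotic members did not pass either. Kif15, which backs up Kif11 at the spindle, had a slope of -0.09 (adjusted p = 0.052), Kif2c (MCAK), which takes microtubules apart at centromeres, had -0.05 (adjusted p = 0.19), and Kif14, which acts in late cytokinesis, had -0.002 (adjusted p = 0.97) and a mean level at the 5.74th percentile of all genes. Without the E13.5 array 3 of the 11 were called lower (Kif11, Kif18a and Kif22). Kif4 (adjusted p = 0.063), Kif20a (adjusted p = 0.065), Kif23 (adjusted p = 0.074) and Kif18b (adjusted p = 0.14) were then not called. Leaving out an end of the line also makes its slope less precise, and the part of each in the lost calls was not tested.

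The promoters of the mitotic kinesins shared a feature that the choice of members did not use. A motif search was made in RefSeq promoter windows (GRCm38.p6) from 250 bases before the first transcribed base to 50 bases from it on, which were found for 31 of the 37 kinesins by gene identifier. Each window belongs to the start of 1 RefSeq transcript, which for some genes lies inside the outer bounds of the gene. The motifs searched on both strands were the cell cycle homology region or CHR (TTTGAA), an element of genes that are expressed late in the cell cycle, the CCAAT box (CCAAT) and the GC box (GGGCGG). The CHR letters stood in 9 of the 10 mitotic windows, in 1 of 10 windows of axonal and vesicle kinesins, in 1 of 9 windows of ciliary kinesins and in 1 of 6 windows of the others, against 17.9% of all 32851 windows. Within 50 bases of the start they stood in 7 of 10 mitotic windows, against 4.94% of all windows. CCAAT was found in 6 of 10 mitotic windows and in 37.4% of all windows, and GGGCGG in 6 of 10 and in 35.7%. In the axonal and vesicle, ciliary and other classes CCAAT stood in 2 of 10, 5 of 9 and 2 of 6 windows. GGGCGG stood there in 7 of 10, 6 of 9 and 4 of 6, so it was not particular to the mitotic class. The windows of 20 genes of the spindle and cell cycle machinery (the mitotic partners described below) held CHR letters in 17 of 22 cases. A match is a description of letters and no evidence of binding, and no member was chosen by it. Among all kinesin windows the only overlap of 1 motif with another was between CCAAT and GGGCGG in the Kif3a window. The part from 150 bases before the start to 30 bases from it on is printed for the 7 mitotic kinesins with CHR letters within 50 bases of the start (Kif15 and Kif20b among them, whose slopes were not called), with whole matches to CHR and CCAAT on either strand in capitals (TTTGAA or TTCAAA, and CCAAT or ATTGG):
Kif11, chr19:37376232-37376411, plus strand: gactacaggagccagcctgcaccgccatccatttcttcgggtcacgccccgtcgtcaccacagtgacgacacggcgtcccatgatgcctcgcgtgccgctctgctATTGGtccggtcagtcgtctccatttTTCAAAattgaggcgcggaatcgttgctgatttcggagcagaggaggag
Kif22, chr7:127042391-127042570, minus strand: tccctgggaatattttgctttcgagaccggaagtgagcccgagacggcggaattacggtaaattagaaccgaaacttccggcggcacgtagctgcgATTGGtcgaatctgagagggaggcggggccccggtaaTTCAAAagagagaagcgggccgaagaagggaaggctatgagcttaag
Kif18b, chr11:102925095-102925274, minus strand: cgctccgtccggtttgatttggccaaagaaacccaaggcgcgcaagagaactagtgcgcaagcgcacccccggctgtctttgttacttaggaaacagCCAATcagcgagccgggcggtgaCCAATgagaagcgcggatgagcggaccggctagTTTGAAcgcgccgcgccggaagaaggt
Kif23, chr9:61946770-61946949, minus strand: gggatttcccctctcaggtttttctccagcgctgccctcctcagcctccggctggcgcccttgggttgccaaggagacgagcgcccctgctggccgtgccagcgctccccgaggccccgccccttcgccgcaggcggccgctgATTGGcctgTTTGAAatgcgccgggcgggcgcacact
Kif20b, chr19:34922208-34922387, plus strand: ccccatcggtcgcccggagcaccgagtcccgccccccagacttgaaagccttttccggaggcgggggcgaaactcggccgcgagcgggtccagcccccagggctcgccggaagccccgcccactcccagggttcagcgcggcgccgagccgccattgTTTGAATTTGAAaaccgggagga
Kif4, chrX:100625915-100626094, plus strand: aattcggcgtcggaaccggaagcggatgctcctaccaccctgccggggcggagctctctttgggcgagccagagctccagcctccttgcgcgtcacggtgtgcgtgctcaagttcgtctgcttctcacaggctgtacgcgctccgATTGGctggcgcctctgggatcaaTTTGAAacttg
Kif15, chr9:122950931-122951110, plus strand: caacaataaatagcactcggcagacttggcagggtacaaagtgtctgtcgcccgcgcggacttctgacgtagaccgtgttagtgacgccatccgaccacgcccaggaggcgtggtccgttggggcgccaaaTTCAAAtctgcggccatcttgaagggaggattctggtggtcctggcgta
In Kif11 and Kif22 the CHR letters lay upstream of the start, with their first base at -19 and -17, counted from 0 at the first transcribed base, and a CCAAT box on the reverse strand began at -45 and -54. In Kif18b, Kif23, Kif20b and Kif4 they lay just inside the transcribed part, beginning at 3, 2, 7 and 19, and Kif20b carried a pair of them end to end, at 7 and at 13. Kif15 had CHR letters at -19 and -234 and no CCAAT box, and Kif2c and Kif14 only far from the start, at -103 and -228.

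Kif18a was the mitotic window without CHR letters. Outside the mitotic class Kif26b, whose level fell further than that of any other kinesin, had CHR letters at -9 and a CCAAT box at -73, and Kif16b, the 1 axonal and vesicle kinesin called lower, had neither. These 3 windows are shown for comparison with the set above, in the same span and with the same capitals:
Kif26b, chr1:178528975-178529154, plus strand: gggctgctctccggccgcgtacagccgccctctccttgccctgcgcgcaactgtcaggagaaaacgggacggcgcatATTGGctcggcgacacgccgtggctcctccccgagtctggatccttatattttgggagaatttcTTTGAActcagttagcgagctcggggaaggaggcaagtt
Kif18a, chr2:109280588-109280767, plus strand: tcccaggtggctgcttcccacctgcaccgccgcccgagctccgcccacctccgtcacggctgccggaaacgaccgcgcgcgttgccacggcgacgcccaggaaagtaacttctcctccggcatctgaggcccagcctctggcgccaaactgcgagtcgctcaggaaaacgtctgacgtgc
Kif16b, chr2:142901435-142901614, minus strand: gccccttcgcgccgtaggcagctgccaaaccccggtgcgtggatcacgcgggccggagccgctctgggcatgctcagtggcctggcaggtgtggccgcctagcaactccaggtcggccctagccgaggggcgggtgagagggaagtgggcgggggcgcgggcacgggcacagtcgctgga
Kif1a had CHR letters at -44 in 1 of its 2 windows and Kif27 at -191, -89 and -73, and neither gene was called along the slope. CHR letters near a start were found in kinesins with and without a called slope. A link between these letters and the level was not tested.

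**Figure D2:**
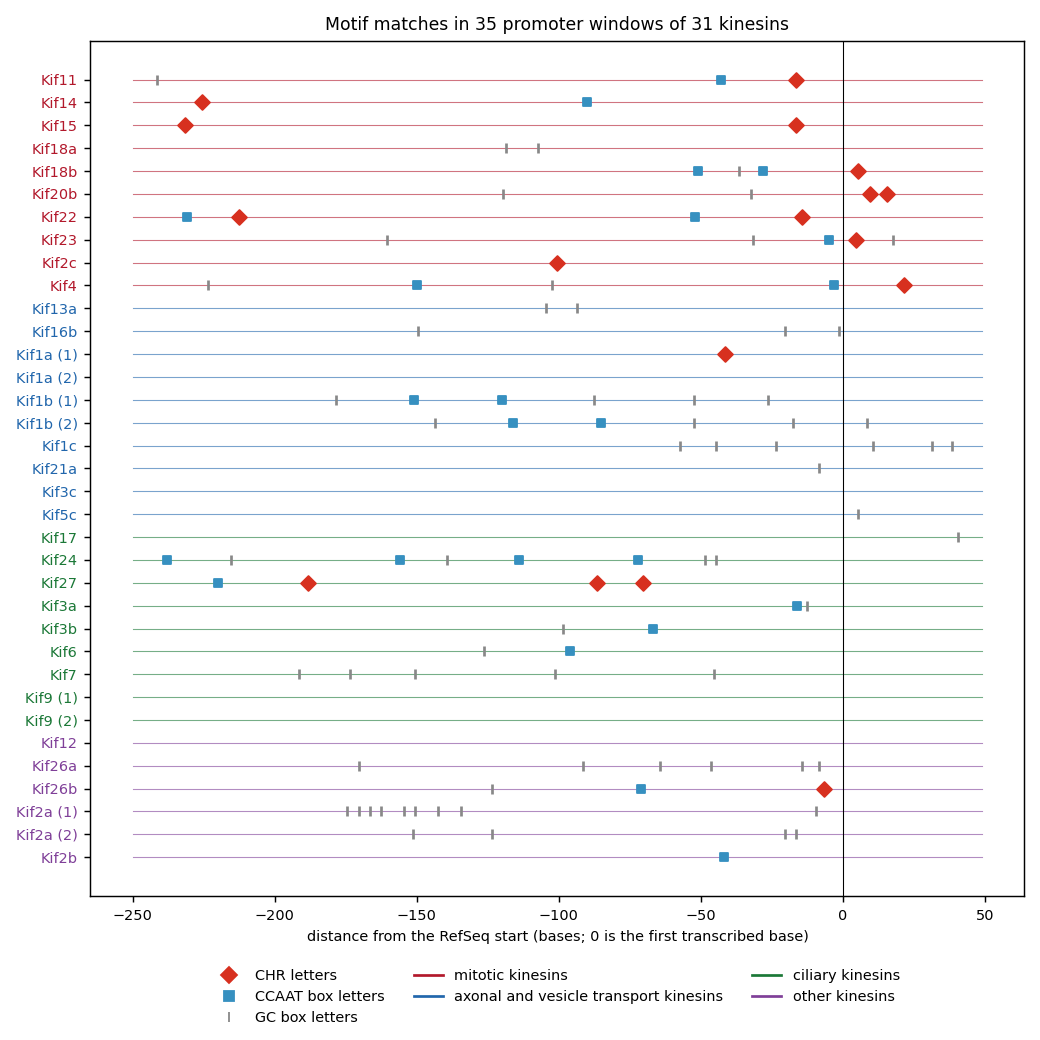
Places of motif matches in 35 promoter windows of 31 kinesins (1 row each, grouped by class), with distance from the RefSeq start in bases on the horizontal axis. Diamonds mark CHR letters, squares CCAAT and ticks GGGCGG on either strand, and the diamonds gather near the start in 7 of the 10 mitotic rows at the top.

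In the adult, 2 of the 37 kinesins were called lower than the embryonic line predicted for E18.5, beside 3.26% of all genes, and none was called higher, beside 4.23%. The 2 were Kif22 and Kif26a. At an adjusted p under 0.05 whatever the size, 7 of the 37 passed, beside 18.6% of all genes (also Kif7, Kif9, Kif11, Kif21b and Kif27). Kif22 stood at 6.34 in the adult, against 7.85 fitted at E18.5, a difference of -1.51 ± 0.090 (SE, adjusted p = 0.00011). Kif11 stood at 6.16, against 6.999 fitted, and this difference of -0.84 ± 0.14 (SE, adjusted p = 0.0073) passed the p threshold but not the size. The other 9 mitotic kinesins had adult differences between -0.37 and 0.25 with adjusted p from 0.23 to 0.85. For Kif20a, which had fallen furthest of the class by E18.5, the adult difference was -0.37 ± 0.29 (SE, adjusted p = 0.47), and for Kif4 it was -0.37 ± 0.19 (SE, adjusted p = 0.26). Against the averaged E17.5 and E18.5 arrays, a comparison with 1 residual degree of freedom, the differences of Kif22 (-1.60) and Kif26a (-1.01) both had an adjusted p of 0.089.

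**Figure D3:**
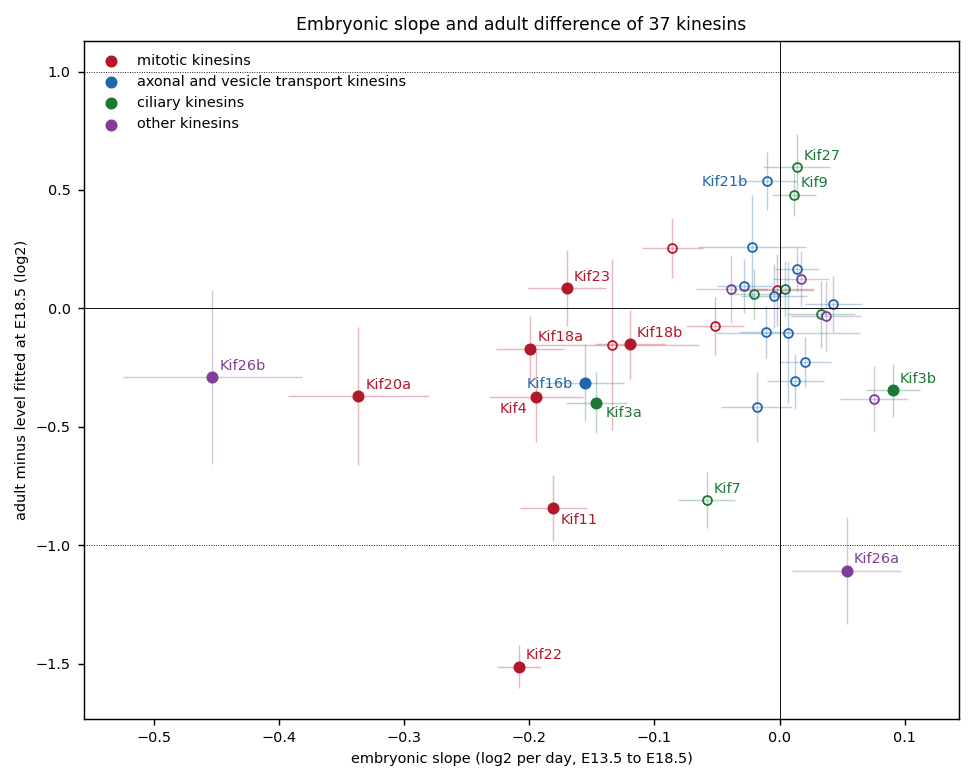
Embryonic slope in log2 units per day (horizontal axis) and adult level minus the level fitted at E18.5 in log2 units (vertical axis) of the 37 kinesins, with lines of 1 SE, coloured by class. Filled points passed the slope or the adult threshold, dotted lines mark a difference of 1, and the filled mitotic points lie left of 0 with Kif22 lowest at -1.51.

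The genes that work with the mitotic kinesins also fell along the embryonic slope, and many were lower again in the adult. Of 24 measured partners (the Aurora B complex, checkpoint and midzone proteins, cyclins and Cdk1), 19 were called lower along the slope and none higher. Over all genes 10.4% were called lower and 9.12% higher. The median slope of the partners was -0.14 log2 units per day. Bub1, a checkpoint kinase, had the steepest slope, with levels of 8.02 (E13.5), 6.64 (E18.5) and 5.34 (adult) (-0.31 ± 0.030 per day, SE, adjusted p = 0.0018). In the adult difference 1 of the 11 mitotic kinesins was called lower, with a median of -0.15, against 11 of the 24 partners, with a median of -0.98. The share called lower over all genes was 3.26%. Prc1, the midzone crosslinker that Kif4 carries, had the largest adult difference, at 8.66, against 10.64 measured at E18.5 (-2.06 ± 0.13 from the fitted level, SE, adjusted p = 0.00013). When each gene was read by its probe set with the highest mean, 4 of 11 mitotic kinesins and 15 of 24 partners were called lower in the adult. The share over all genes was then 5.52%. Whether kinesins and partners differ was not tested. Beside these falls the markers of colon epithelium and smooth muscle rose, 10 of 10 and 5 of 7 along the slope, and those of embryonic blood fell (Hbb-y and Hba-x, 2 of 6 blood markers). The part of these changes in the mitotic result was not tested.

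Probe sets of 1 kinesin often disagreed, and for the axonal kinesins this decided what was seen. In 17 of the 25 kinesins with several probe sets, the mean levels of the probe sets spanned more than 2 log2 units, and a median over them can rest on the dim ones. Each probe set was therefore also fitted on its own, a choice made after seeing the data. Of the 99 probe sets 21 were called lower along the slope, beside 9.55% of all single-gene probe sets, and 3 higher, beside 7.24%. In the adult difference 9 were called lower, beside 4.21%, and 2 higher, beside 3.94%. Among the 24 mitotic probe sets 13 were called lower and none higher, against 4 lower and 2 higher of the 45 axonal and vesicle probe sets. No kinesin had 1 set called lower and another called higher. With the probe set of highest mean standing for each gene, 11 kinesins were called lower along the slope, beside 10.6% of all genes, and 2 higher, beside 10.4%, while in the adult 8 were lower, beside 5.52%, and 2 higher, beside 5.15%.

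Kif5a gave the clearest case. It encodes 1 of 3 heavy chains of conventional kinesin and is largely confined to neurons, where it carries neurofilaments and other cargo along axons, and it lies at chr10:127225695-127266348 (GRCm38.p6). Its probe set of highest mean read 6.59, 7.35, 8.13, 8.71, 9.05 and 9.20 from E13.5 to E18.5 and 7.54 in the adult. This signal climbed at every embryonic step (slope 0.54 ± 0.052 per day, SE, adjusted p = 0.0024) and stood in the adult below its E16.5 level (difference -1.97 ± 0.27, SE, adjusted p = 0.0041). Its other 2 sets lay at 3.76 to 3.98 and 5.88 to 6.11 on all arrays, and the median used as the gene level was 5.97, 6.02, 6.11, 6.07, 5.97 and 5.93, and 5.88 in the adult, with a slope of -0.01 (adjusted p = 0.80). Which of the 3 sets follows the transcript was not tested. Kif5c, the other neuronal heavy chain, had at its probe set of highest mean 7.97, 8.57, 8.09, 8.99, 8.86 and 8.72, and 6.90 in the adult. The adult was lowest of all 7 arrays (difference -2.03 ± 0.32, SE, adjusted p = 0.0073), and the embryonic slope of 0.16 did not pass (adjusted p = 0.15). By the median over 4 sets the adult difference of Kif5c was -0.31 ± 0.12 (SE, adjusted p = 0.13). Kif5b, the heavy chain of most cell types, was called by no rule. Its set of highest mean lay between 10.35 and 10.77 on all arrays.

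Of the 14 enteric neuron markers measured, 8 were also lower in the adult, beside 3.26% of all genes. Along the slope 4 were called higher (Stmn2, Snap25, Prph and Uchl1), beside 9.12% of all genes, and none lower, beside 10.4%. None was called higher in the adult. Their mean log2 level was 6.91 at E13.5, 7.51 to 7.66 from E14.5 to E18.5 and 6.56 in the adult. The largest adult difference was that of Stmn2, a microtubule regulator of growing axons, with levels of 7.56 (E13.5), 9.09 (E18.5) and 6.87 (adult). Snap25, a protein of synaptic vesicle release, had the steepest slope, with 5.33 (E13.5), 8.23 (E18.5) and 7.90 (adult), and its adult difference of -0.59 was not called (adjusted p = 0.31). The part of neuron content in the 2 kinesin signals was not tested. Of the 16 adaptors and dynein subunits of axonal transport, none was called lower, 1 was called higher along the slope (Trak1, which links kinesin to mitochondria, 0.17 ± 0.021 per day, SE, adjusted p = 0.0031) and none was called in the adult. Trak1 read 5.67 on the E13.5 array, 6.50 on the E18.5 array and 7.20 on the adult array.

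**Figure D4:**
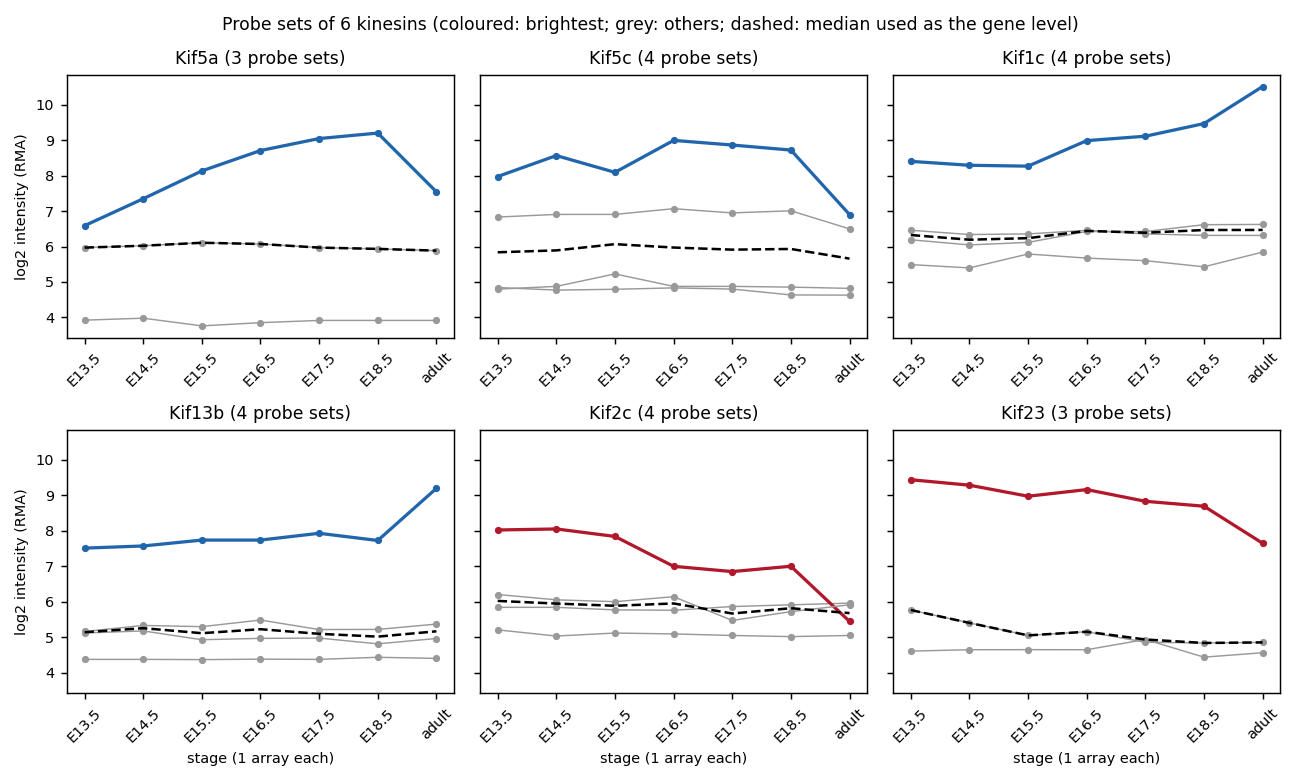
Log2 intensity (vertical axis) by stage (horizontal axis, 1 array each) of every probe set of 6 kinesins. The coloured line is the probe set of highest mean, grey lines are the others and the dashed line is their median. For Kif5a the coloured line reaches 9.20 at E18.5 while the dashed line stays between 5.88 and 6.11.

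Of the other axonal and vesicle kinesins, Kif16b was the 1 called along the slope by the median. It binds early endosomes and moves them outward in many cell types. Its log2 levels were 8.66, 8.62, 8.34, 8.01, 7.93 and 8.05 from E13.5 to E18.5, with the adult at 7.57 (slope -0.16 ± 0.032 per day, SE, adjusted p = 0.017), and 2 of its 3 probe sets were called lower on their own. The decline lay between E14.5 and E16.5, and the call was lost without E13.5 (adjusted p = 0.087), without E14.5 (adjusted p = 0.059) and without E17.5 (adjusted p = 0.064). Kif1c, a vesicle motor of neurons and other cells, had by the median 6.32, 6.19, 6.24, 6.44, 6.39 and 6.46, and 6.47 in the adult, with a slope of 0.04 ± 0.023 (SE, adjusted p = 0.26). Its probe set of highest mean read 8.40, 8.29, 8.27, 8.99, 9.11 and 9.47, and 10.51 in the adult. That set rose along the slope (0.24 ± 0.048, SE, adjusted p = 0.018) and again in the adult (1.15 ± 0.25, SE, adjusted p = 0.022), which no other kinesin probe set did. Kif13b, which carries membrane proteins, had by the median 5.14, 5.25, 5.11, 5.22, 5.09 and 5.02, and 5.17 in the adult. Its set of highest mean lay between 7.51 and 7.93 on the embryonic arrays and at 9.20 in the adult (difference 1.34 ± 0.13, SE, adjusted p = 0.0011), while its other 3 sets stayed between 4.37 and 5.48.

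The remaining axonal and vesicle kinesins showed little movement by the median. Kif1b, a motor of mitochondria and synaptic vesicle precursors, had 7.11, 7.03, 7.15, 7.47, 7.07 and 6.87, and 7.32 in the adult, with no call in either comparison. Of its 7 probe sets 2 were called lower along the slope, 1 of them reading 8.92 (E13.5), 7.93 (E18.5) and 7.32 (adult) (slope -0.24 ± 0.049, SE, adjusted p = 0.020), while the set of highest mean stayed between 8.80 and 9.38. Kif21b, a neuronal motor that also limits microtubule growth, had 6.83, 6.77, 6.58, 6.69, 6.72 and 6.77, and 7.24 in the adult. Its adult difference of 0.54 ± 0.12 (SE, adjusted p = 0.025) passed the p threshold but not the size. The 2 probe sets behind it had adult differences of 0.92 and 0.16. Kif3c, a kinesin-2 of neurons, had 7.53, 7.36, 7.68, 7.54, 7.45 and 7.37, and 7.03 in the adult, with an adult difference of -0.42 ± 0.15 (SE, adjusted p = 0.10). For its 2 probe sets the adult differences were -0.63 and -0.20. Kif21a, a relative of Kif21b, had 5.83, 5.90, 5.88, 5.89, 6.04 and 5.88, and 5.73 in the adult. Its set of highest mean was not flat, reading 8.75, 9.61, 9.64, 9.11, 9.04 and 8.65, and 9.05 in the adult, and was called in neither comparison. Kif1a, which carries synaptic vesicle precursors, and Kif13a, which carries endosomal cargo, spanned 0.24 and 0.29 log2 units over the 7 arrays. By the median, the standard errors of the slopes (0.018 to 0.058 per day over the 11 uncalled members) imply intervals that still allow small slopes. They do not bound the slopes of single probe sets, such as the sets of highest mean of Kif5a (0.54) and Kif1c (0.24).

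**Figure D5:**
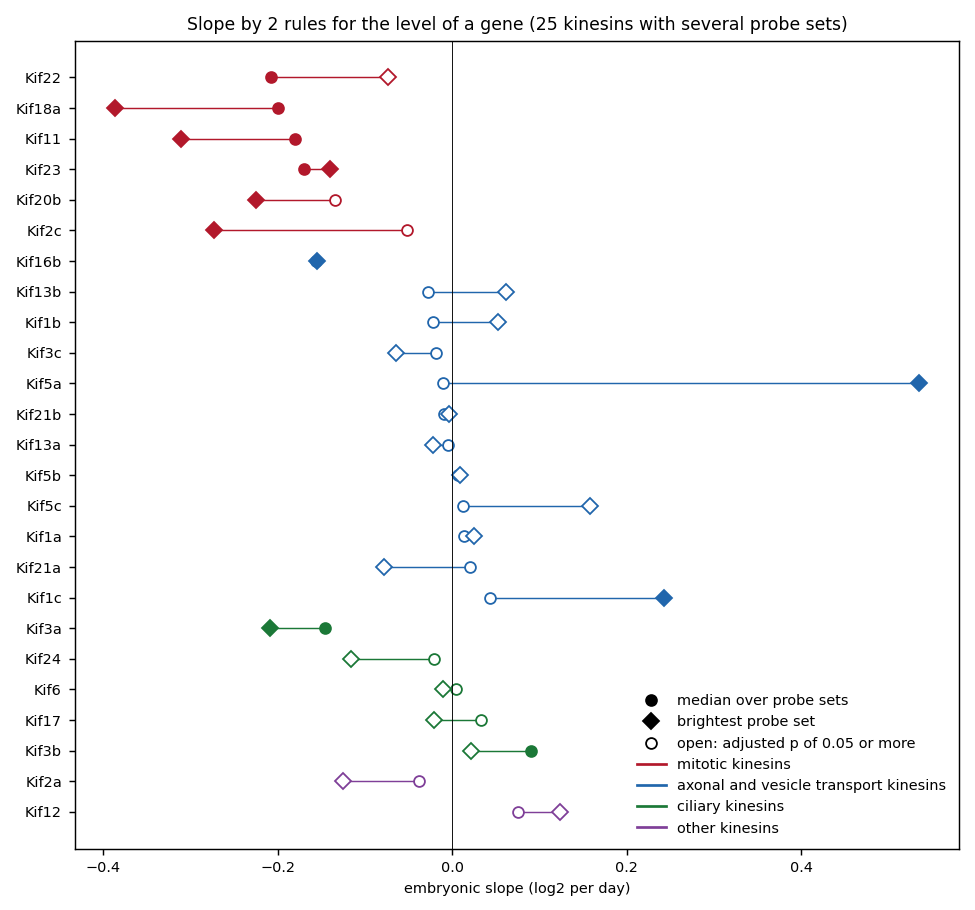
Embryonic slope in log2 units per day (horizontal axis) of the 25 kinesins with several probe sets, by the median over probe sets (circles) and by the probe set of highest mean (diamonds), coloured by class. Filled marks have an adjusted p under 0.05. The longest line is that of Kif5a, from -0.01 to 0.54, and in the mitotic rows at the top all marks lie left of 0.

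Of the 8 ciliary kinesins, 1 was called in each direction along the slope, beside 10.4% of all genes lower and 9.12% higher. Kif3a and Kif3b are the 2 motor chains of heterotrimeric kinesin-2, which drives transport toward the tip of the cilium together with the subunit encoded by Kifap3. Kif3a had 7.41, 7.39, 7.02, 7.03, 6.75 and 6.77 from E13.5 to E18.5 and 6.30 in the adult, with a slope of -0.15 ± 0.025 per day (SE, adjusted p = 0.0086). Kif3b had 6.23, 6.30, 6.34, 6.62, 6.55 and 6.66, and 6.33 in the adult, so that its early levels were the lowest of the embryonic series and its slope was 0.09 ± 0.021 (SE, adjusted p = 0.028). The 2 chains thus had slopes of opposite sign, and this difference was not tested. The fall of Kif3a was called in 2 of its 4 probe sets and with the set of highest mean, which also gave an adult difference of -1.32 ± 0.28 (SE, adjusted p = 0.021), against -0.40 ± 0.13 (SE, adjusted p = 0.076) by the median. The rise of Kif3b was less stable, with 0.02 (adjusted p = 0.66) at the set of highest mean, 0.04 (adjusted p = 0.32) over the order of all 7 arrays, and adjusted p values of 0.072 to 0.12 without E13.5, E14.5, E17.5 or E18.5. Kifap3 had 8.74, 8.64, 8.41, 8.30, 8.25 and 8.09, and 7.01 in the adult, falling at every step (slope -0.13 ± 0.019, SE, adjusted p = 0.0053) and again in the adult (-1.07 ± 0.097, SE, adjusted p = 0.00062).

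Kif7, the kinesin at the ciliary tip that tunes the Gli factors of Hedgehog signalling, had 6.35, 6.15, 6.10, 6.18, 6.13 and 5.94, and 5.18 in the adult. Its embryonic slope did not pass (-0.06 ± 0.023, SE, adjusted p = 0.14), and its adult difference of -0.81 ± 0.12 (SE, adjusted p = 0.0045) passed the p threshold but not the size. Kif27, a close relative of Kif7 that acts in motile cilia, had 4.75, 4.86, 4.86, 4.91, 4.67 and 4.95, and 5.46 in the adult, and Kif9, a motor of motile cilia, had 5.85, 5.93, 5.93, 5.93, 5.92 and 5.93, and 6.43 in the adult. The adult was the highest array for both, with differences of 0.60 ± 0.14 (SE, adjusted p = 0.025) and 0.48 ± 0.091 (SE, adjusted p = 0.013) that were under the size. Kif17, which acts in the cilia of sensory neurons, had 5.43, 5.17, 5.29, 5.43, 5.49 and 5.44, and 5.43 in the adult. Kif24, which holds back the outgrowth of cilia at the centriole, had 6.08, 6.14, 6.06, 6.08, 6.12 and 5.94, and 6.08 in the adult. By the median neither gene passed in either comparison, and Kif6 stayed between 5.06 and 5.27. The level of Kif24 was that of the middle of its 3 probe sets. Its brightest set was not flat, reading 8.02 (E13.5), 7.49 (E18.5) and 6.56 (adult). The slope of that set did not pass (-0.12 ± 0.035, SE, adjusted p = 0.071), and its adult difference of -0.84 was under the size. The dimmest set lay between 4.39 and 4.85 on all arrays. Of 13 markers of motile cilia, 1 was called along the slope (Dnah11, lower) and none in the adult, and their mean log2 level lay between 5.23 and 5.45 on all arrays. Of 21 genes of transport in cilia, 5 were called lower along the slope (Ift81, Ift88, Wdr19, Dync2h1 and Bbs2) and none higher. Their median slope was -0.08, and in the adult Ift80 was called lower and Ift172 higher. Over all genes 10.4% were called lower along the slope and 9.12% higher, and in the adult 3.26% lower and 4.23% higher.

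Among the 6 kinesins outside these classes are the largest embryonic fall and 1 of the 2 called adult differences. Kif26b, an atypical kinesin that is required for the mesenchyme of the mouse kidney, had 9.36, 8.03, 7.66, 7.32, 7.25 and 6.73 from E13.5 to E18.5 and 6.30 in the adult. It dropped at every step, most steeply between E13.5 and E14.5, with a slope of -0.45 ± 0.071 per day (SE, adjusted p = 0.0069). The adult level lay below that of E13.5 by a factor of 8.34 (E13.5 over adult), the widest span of the 37 genes, while the adult difference from the fitted E18.5 level was -0.29 ± 0.37 (SE, adjusted p = 0.68). It lies at chr1:178529125-178932857 (GRCm38.p6) and was read by 1 probe set. Kif26a, its relative, lacks motor activity and in mice dampens growth factor signalling in enteric neurons. It had 9.31, 9.17, 9.81, 9.56, 9.54 and 9.52, and 8.51 in the adult, so that the adult lay below all 6 embryonic arrays. Its adult difference was -1.11 ± 0.23 (SE, adjusted p = 0.016), and -1.12 (adjusted p = 0.055) without E17.5. The step lay where 8 of 14 neuron markers were also called lower, and their part in it was not tested.

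The other 4 were not called by the median. Kif12, known from kidney and liver, had 5.16, 5.29, 5.32, 5.61, 5.58 and 5.46, and 5.21 in the adult, with a slope of 0.08 ± 0.027 (SE, adjusted p = 0.11). Kif2a, a relative of Kif2c that takes microtubules apart in neurons and at spindle poles, had 4.99, 4.81, 4.84, 5.05, 4.79 and 4.70, and 4.85 in the adult, from 5 probe sets of which 3 read below 5.06 on every array. Its other 2 sets read 9.15 and 9.47 at E13.5, 8.64 and 8.87 at E18.5, and 7.70 and 7.78 in the adult, and the first of them was called lower along the slope (-0.13 ± 0.027, SE, adjusted p = 0.020). Kif2b had 4.34, 4.19, 4.28, 4.43, 4.34 and 4.34, and 4.49 in the adult, and Kif28 had 4.21, 4.39, 4.35, 4.41, 4.61 and 4.32, and 4.44 in the adult. Their mean levels were at the 4.39th and 5.36th percentiles of all genes, and changes at such levels are hard to see on an array.

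Individual probe sets of the mitotic class added calls that the median did not show. For Kif2c the set of highest mean read 8.0, 8.1, 7.8, 7.0, 6.8 and 7.0, and 5.4 in the adult, with a step between E15.5 and E16.5 (slope -0.27 ± 0.054, SE, adjusted p = 0.018) and an adult difference of -1.33 ± 0.28 (SE, adjusted p = 0.020), while its other 3 sets stayed between 5.02 and 6.20. For Kif23 that set read 9.44, 9.29, 8.98, 9.16, 8.83 and 8.69, and 7.65 in the adult, with an adult difference of -1.07 ± 0.14 (SE, adjusted p = 0.0038), against 0.09 (adjusted p = 0.79) by the median. For Kif20b it read 8.92, 8.87, 8.29, 8.23, 7.998 and 7.88, and 7.77 in the adult, and was called along the slope (-0.22 ± 0.030, SE, adjusted p = 0.0055). All 3 signals went down over the embryonic series. The highest set of Kif11 read 9.12, 9.15, 9.24, 8.44, 8.15 and 7.70, and 6.16 in the adult, with an adult difference of -1.70 ± 0.29 (SE, adjusted p = 0.0088). In Kif22 that set fell less before birth, with 9.60 (E13.5), 9.27 (E18.5) and 7.77 (adult), so that its slope of -0.07 did not pass (adjusted p = 0.080) and its adult difference of -1.56 ± 0.12 (SE, adjusted p = 0.00040) did. With the highest set for each gene, 8 of 11 mitotic kinesins were called lower along the slope and 4 in the adult (Kif2c, Kif11, Kif22 and Kif23). The shares over all genes were 10.6% and 5.52%.

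Kinesin genes under other names were called in both directions. The 10 measured were Cenpe, Kifc1, Kifc2, Kifc3, Kifc5b, Stard9, Kifap3, Klc1, Klc3 and Klc4. Of these, 3 were called lower along the slope and 2 higher, beside 10.4% and 9.12% of all genes. The falls were those of Cenpe, Kifc1 and Kifap3. Cenpe, which moves chromosomes to the metaphase plate, had 8.003, 7.79, 7.17, 6.92, 6.57 and 6.59, and 5.77 in the adult (slope -0.31 ± 0.036, SE, adjusted p = 0.0027), and Kifc1, which focuses spindle poles, had 7.68, 7.32, 7.17, 7.17, 7.17 and 7.05, and 5.76 in the adult (adult difference -1.24 ± 0.15, SE, adjusted p = 0.0019). The slope of Kifc1 was near the threshold, with an adjusted p of 0.048, and of 0.053 with the probe set of highest mean for each gene, and those of its relative Kifc5b (adjusted p = 0.67) and of Stard9 (adjusted p = 0.73) did not pass. Kifc2, a minus-end motor of neurons, and Klc4, a light chain of conventional kinesin, rose along the slope by 0.11 and 0.12 per day (adjusted p = 0.022 and 0.019).

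The authors defined development-related genes by a rank correlation with stage and then by a large spread over the stages. Only the correlation step was applied here. By rank over all 7 stages, 8 of the 37 kinesins had a Spearman correlation with stage below -0.9, beside 7.73% of all genes, and none was above 0.9, beside 6.5%. Of these, 6 were mitotic (Kif11, Kif18a, Kif18b, Kif20a, Kif22 and Kif23), and the other 2 were Kif3a and Kif26b. Kif22 and Kif26b fell in strict order of stage.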

How the data were processed

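Total RNA of colon from 7 stages was hybridized to Affymetrix mouse genome arrays. The authors deposited log2 intensities after RMA normalization (affy 1.22.1 under R 2.9.2, as listed in the submitters' processing notes), which forces 1 distribution on all arrays and so hides any shift common to most genes. The number of arrays limits the precision. From the deposited log2 values, probe sets were named through the platform annotation (34958 with 1 gene used, 932 with several and 9211 with none left out, 1 of the 932 naming Kif27 beside another gene) and summarized per gene by their median. limma 3.58.1 in R 4.3.3 (lmFit and eBayes) fitted an embryonic slope and an adult term, with Benjamini-Hochberg adjustment over 18194 genes. On simulated arrays it called 54% of slopes of 0.2 and 92% of 0.5 per day, and 70% of adult differences of 1.5 and 98% of 3, with 0 false calls. Those arrays had independent noise, no array effects and 50 changed genes per size, fewer than were called in the data. They therefore cannot show how the lone adult array behaves. The kinesins, their classes and the comparison lists were chosen with earlier results of these data known. In each class, values on all 7 arrays are given for the 6 members with the largest slope in either direction and the 4 with the largest adult difference, and for further members where a result needed them. Members of comparison lists were named by the largest slope or adult difference, or where a count was 5 or fewer. Promoter sequences are from RefSeq (GRCm38.p6). Alternatives tried were 1 probe set per gene (that of highest mean), no genes of the dimmest 25%, arrays centred on their medians, trended and robust eBayes, a slope over 7 arrays, another reference for the adult, leaving out each embryonic array and, added after seeing the data, each probe set on its own. Other steps used Python 3.11.15 with pandas 2.3.3, numpy 2.4.6, matplotlib 3.10.9 and scipy 1.17.1.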

Additional observations from a re-analysis of the deposited data

How the results depend on the processing

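With the probe set of highest mean in place of the median, 2 kinesins were called higher along the slope (both axonal, Kif1c and Kif5a, none ciliary, so that the rise of Kif3b was lost and the ciliary count was 0), 8 were lower in the adult (4 mitotic, 2 axonal, 1 ciliary and 1 other) and 2 higher (both axonal). Under the same setting the slope of Kif5a turned to 0.54 and the adult difference of Kif23 to -1.07. The class medians moved as well, to -0.58 (mitotic) and -0.40 (others) for adult minus E18.5, and with opposite sign to 0.17 (axonal) and -0.0725 (ciliary) for E18.5 minus E13.5. Each probe set on its own gave 3 kinesins with a set called higher along the slope, 8 with a set lower and 2 with a set higher in the adult. A slope over the order of 7 arrays gave 0 kinesins higher, ciliary ones included, and setting the adult against the averaged E17.5 and E18.5 arrays gave 0 lower in all (0 mitotic and 0 other).

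Leaving out 1 embryonic array at a time gave 5 to 12 kinesins lower and 0 to 1 higher along the slope, 3 to 9 mitotic, 0 to 1 axonal and 1 to 1 ciliary kinesins lower, and 0 to 1 ciliary higher. In the adult it gave 1 to 2 kinesins lower and 0 to 1 of the others. The lowest counts over all kinesins and over the mitotic ones came without E13.5, and by rank 5 to 10 kinesins were lower and 0 to 1 higher. Over all single kinesins and alternatives, 763 of the values kept their side of the threshold, 21 lost a call and 14 gained one. A further 2 changed sign with a call on at least 1 side. A change of sign between uncalled values was counted as kept, as for the slope of Kif13b (-0.03 by the median, 0.06 by the set of highest mean). The filter on dim genes changed no call of a kinesin it kept, and centring the arrays or a robust fit changed only the call of Kif15 (adjusted p = 0.023 and 0.041). No paired analysis was possible because each stage has 1 array. With 1 array per stage, a stage and its array cannot be told apart, and a probe set's failure cannot be told apart from a low transcript.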

Other observations

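On the E15.5 array some kinesin probe sets stood below both neighbouring stages. A Kif5b set read 6.03 there, against 7.60 to 8.39 on the other 6 arrays, and another read 7.03, against 7.18 to 8.30. A Kif20b set read 7.03 at E15.5, 8.43 at E14.5 and 8.07 at E16.5. The highest sets of both genes showed no such dip, with 10.77 for Kif5b and 8.29 for Kif20b at E15.5.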
